A study of Oryza sativa with 6 samples.

Results

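Class III peroxidases are the secreted plant peroxidases, and in the deposited gene table they were taken as the 127 of 61955 genes with the Pfam peroxidase domain (PF00141) whose NR or Swiss-Prot hit names neither ascorbate peroxidase nor catalase. The domain was found in 138 genes, and the wording of the hits left out 11 of them, all ascorbate peroxidases. Their transcripts were measured by RNA-seq in rice embryos of NIL-D (giant embryo, titled GED and also called EG, with the genotype CMP-/- in the labels, a name that no label or method explains and that does not name GE) and of NIL-X (wild type in the labels, normal embryo, also called CG), with 3 samples per line. Both near-isogenic lines came from a cross of the cultivar Dapeimi. NIL-D carries the Dapeimi allele of GIANT EMBRYO (GE), a cytochrome P450 gene with a frameshift deletion in its first exon, and NIL-X carries the segment of the other parent. Embryos were taken at about 15 days after flowering from 3 field plots that held both lines, 1 RNA sample per line and plot, and which plot a replicate number stands for is not given in the sources used here. Each line is 1 selfed line, so the GE allele and any other segment that differs between the lines cannot be told apart.

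Class III peroxidases are heme enzymes of the cell wall and vacuole that use hydrogen peroxide to oxidise phenolic substrates. They couple monolignols into lignin, cross-link extensins and feruloylated polysaccharides and so stiffen the wall, and in another cycle they form hydroxyl radicals that loosen it. In grasses the family is large and has spread by tandem duplication, and many of its genes are used in roots, in stressed tissue or in 1 organ only. In grains, peroxidases are known from the embryo, the aleurone layer and the seed coat.

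The annotation fitted the name of the family for nearly all members. A Swiss-Prot hit named as a peroxidase was given for 124 members, the KEGG entry K00430 (the plant peroxidase) for 125, and the GO term extracellular region for 123. There were 3 members with other hits, and they are counted below because the rule takes them. OsZS_04G0473200 matched the thylakoid lumenal 29 kDa protein (TL29), a relative of ascorbate peroxidases in the chloroplast. OsZS_04G0498300 matched a pentatricopeptide repeat protein and carries such repeats beside the peroxidase domain. OsZS_02G0060600 matched a retrotransposon polyprotein, and its highest value was 0.11 TPM.

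Values are TPM, a gene's share of all transcripts after correction for length, with an equal sum for each sample, so levels can be compared between genes. Differences were fitted with limma on log2(TPM + 1) for the 21500 genes with a mean of at least 0.5 TPM over the 6 samples, and a gene was called where its p-value, adjusted by Benjamini-Hochberg, was below 0.05 and its log2 fold change was 1 or more in size. A log2 fold change is NIL-D over NIL-X on this scale, which understates the change of low genes. The depth of the libraries cannot be read from TPM. Of 8 embryo markers, 7 were above 0, and their sum was 43543 to 46409 TPM in NIL-D, against 48168 to 53716 TPM in NIL-X, lower in NIL-D without overlap. Within this list the oleosins had 33996 to 37369 TPM in NIL-D, against 33720 to 36596 TPM in NIL-X, and the Em proteins 7011 to 11613 TPM in NIL-D, against 14370 to 17120 TPM in NIL-X. The part of these markers in the peroxidase values was not tested. Of 35 starchy endosperm markers (prolamins, glutelins and granule-bound starch synthase 1), 33 were above 0 and their sum ran from 4618 to 10395 TPM in NIL-D and from 7939 to 18543 TPM in NIL-X. Of 29 markers of photosynthetic tissue, 27 were above 0, with sums of 255 to 609 TPM in NIL-D, against 485 to 673 TPM in NIL-X. The gene whose number matches the GE transcript, OsZS_07G0416900, has no P450 annotation here. It had 0.1, 0.13 and 0.14 TPM in NIL-D, against 0.09, 0.04 and 0.68 TPM in NIL-X, too low to check the labels. OsZS_07G0414800, also on chromosome 7 and with a hit to cytochrome P450 78A5, had 5.26, 5.01 and 0.99 TPM in NIL-D, against 3.3, 3.73 and 3.48 TPM in NIL-X. Whether either gene is GE was not tested, so the level of GE is not given here. Among all tested genes, 138 were called, 57 being higher in NIL-D and 81 lower, and with median-ratio rescaling 75 higher and 61 lower.

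No class III peroxidase was called between the lines. Of the 127 members, 46 passed the minimum of 0.5 TPM, and 0 of these 46 were called by limma, beside 0.642% of all tested genes. At an unadjusted limma p-value below 0.05 there were 7 members (15.2%), 1 higher and 6 lower in NIL-D, beside 15.6% of all tested genes (3.60% higher and 12.0% lower). The lowest limma adjusted p-value of a member was 0.196. The summed level of the family overlapped between the lines, while the tested members without overlap ran from 0.255 times to 2.05 times the NIL-X mean.

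The transcripts of all 127 members summed to 854, 717 and 581 TPM in NIL-D, with samples here and below in the order of their replicate numbers. In NIL-X they summed to 679, 721 and 800 TPM. The lines overlapped, the highest and the lowest sample were both from NIL-D, and the means were 717 ± 137 TPM in NIL-D, against 733 ± 61.7 TPM in NIL-X (SD over 3 samples each). This was between 0.0581% of all TPM, in NIL-D replicate 3, and 0.0854%, in NIL-D replicate 1. In bulk embryos, fewer cells of a type and less RNA per cell cannot be told apart.

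**Figure D1:**
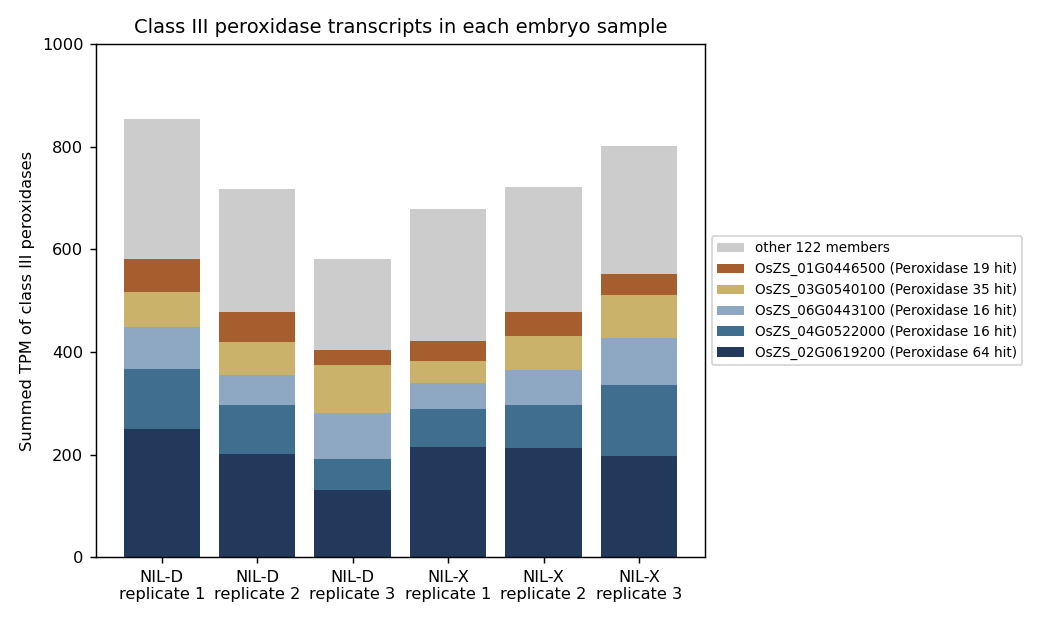
Summed TPM of the 127 class III peroxidases in each of the 6 samples (bars from 0), split into the 5 members with the highest mean and the other 122, with the Swiss-Prot hit in brackets. The sums lay between 581 TPM (NIL-D replicate 3) and 854 TPM (NIL-D replicate 1), and OsZS_02G0619200 took the largest part of any single member in each bar.

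A few genes held most of the family's transcripts. The 5 members with the highest mean made up 66.7% to 69.4% of the sum in NIL-D and 62.0% to 69.1% in NIL-X, and the 10 highest made up 84.7% to 86.3% in NIL-D and 78.8% to 84.3% in NIL-X. A mean of at least 10 TPM was reached by 11 members, a mean from 1 to 10 TPM by 30, and a mean from 0.5 to 1 TPM by 5. Another 44 members were above 0 in at least 1 sample but below the minimum, and 37 were listed at 0 in all 6 samples. The share of members that reached the minimum, 36.2%, was near that of all genes, 34.7%.

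OsZS_02G0619200, on chromosome 2, was the highest member in every sample. Its best Swiss-Prot hit is Arabidopsis peroxidase 64, an enzyme of lignin polymerisation in the Casparian strip of the root endodermis. It had 249, 201 and 132 TPM in NIL-D, against 215, 212 and 198 TPM in NIL-X. The NIL-D values enclosed those of NIL-X, with replicate 3 far below and replicate 1 above. The log2 fold change was -0.15 (standard error 0.23, adjusted p = 0.782 by limma), with a 95% interval from -0.71 to 0.41 that leaves out a 2-fold change in either direction.

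Next came a pair of genes whose best hit is Arabidopsis peroxidase 16. OsZS_04G0522000, on chromosome 4, had 118, 97.0 and 58.7 TPM in NIL-D, against 74.0, 84.5 and 137 TPM in NIL-X. OsZS_06G0443100, on chromosome 6, had 82.1, 57.8 and 90.5 TPM in NIL-D, against 51.5, 67.4 and 92.0 TPM in NIL-X. In both genes the lines overlapped over most of their range, and the samples of NIL-D stood in a different order in one gene than in the other. Their log2 fold changes were -0.12 (standard error 0.33) and 0.14 (standard error 0.26), with limma adjusted p-values of 0.883 and 0.817.

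OsZS_03G0540100, with a best hit to Arabidopsis peroxidase 35, had 68.7, 65.0 and 94.4 TPM in NIL-D, against 41.6, 66.9 and 84.5 TPM in NIL-X. OsZS_01G0446500, with a best hit to peroxidase 19, had 63.3, 57.6 and 27.5 TPM in NIL-D, against 38.6, 46.3 and 41.1 TPM in NIL-X. In OsZS_01G0446500, NIL-D replicates 1 and 2 lay above all of NIL-X and replicate 3 below all of it. Its log2 fold change was 0.15 (standard error 0.31, adjusted p = 0.839 by limma), and without NIL-D replicate 3 it was 0.52 (standard error 0.11, adjusted p = 0.0626 by limma), the lowest adjusted p-value that any member reached without this sample. Over the alternatives its limma adjusted p-value ran from 0.0626 to 0.999.

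The next 5 members had means between 15.9 and 34.0 TPM, and the first 4 of them have Arabidopsis peroxidases as their best hits. OsZS_04G0350000 (peroxidase 65) had 37.6, 30.7 and 38.4 TPM in NIL-D, against 29.4, 26.0 and 42.0 TPM in NIL-X. OsZS_01G0154900 (peroxidase 24) had 55.4, 37.7 and 14.6 TPM in NIL-D, against 22.4, 42.4 and 26.3 TPM in NIL-X. OsZS_04G0379800 (peroxidase 18) had 28.9, 27.3 and 11.2 TPM in NIL-D, against 22.8, 31.0 and 23.4 TPM in NIL-X. The lines overlapped in all 3 genes, and in OsZS_01G0154900 and OsZS_04G0379800 the lowest of the 6 values was that of NIL-D replicate 3. OsZS_04G0552100 (peroxidase 12) had 18.5, 19.2 and 8.25 TPM in NIL-D, against 24.9, 13.5 and 15.6 TPM in NIL-X. The log2 fold changes of these 4 genes and of OsZS_03G0540100 ran from -0.28 to 0.28, with limma adjusted p-values from 0.656 to 0.938.

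OsZS_02G0132900 was the 1 gene of the 10 highest in which the lines did not overlap, by a narrow margin. Its best hit is maize peroxidase 70, which is known from the plasma membrane of maize roots. It had 15.3, 14.8 and 21.9 TPM in NIL-D, against 14.6, 14.3 and 14.4 TPM in NIL-X. The log2 fold change was 0.23 (standard error 0.17, adjusted p = 0.555 by limma), and it was 0.056 (standard error 0.10) without NIL-D replicate 3, so most of it came from that sample.

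**Figure D2:**
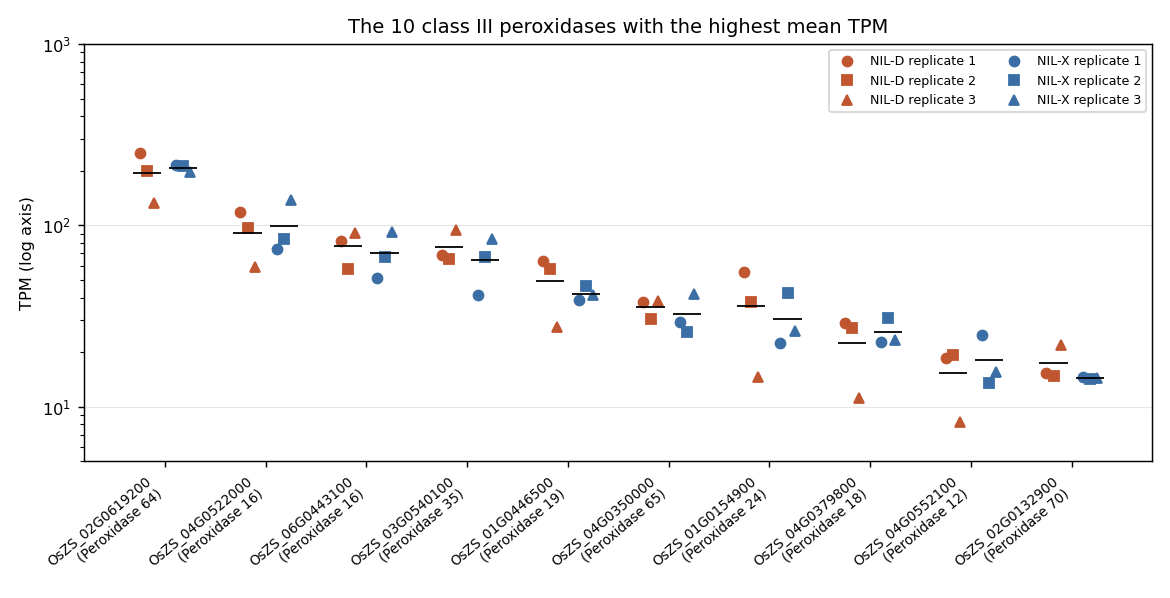
TPM (log axis) of the 10 class III peroxidases with the highest mean, for NIL-D (left of each pair, orange) and NIL-X (right, blue), with a symbol per replicate, the line mean as a bar and the Swiss-Prot hit in brackets. Values of the lines overlapped in 9 of the 10 genes, and NIL-D replicate 3 (triangles) was the lowest value in OsZS_02G0619200, OsZS_04G0522000, OsZS_01G0446500, OsZS_01G0154900, OsZS_04G0379800 and OsZS_04G0552100.

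Among the 46 tested members, 9 (19.6%) had the 3 values of one line above the 3 of the other, 2 being higher in NIL-D and 7 lower. Over the whole set of tested genes this was so for 24.3%, with 4.53% higher and 19.7% lower in NIL-D. The members' share was thus no larger than that of all genes, in which lower values in NIL-D were also the more frequent ones.

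OsZS_01G0095600, on chromosome 1, had the largest fitted increase of the family. Its best Swiss-Prot hit is grapevine peroxidase 4. It had 19.2, 17.6 and 12.2 TPM in NIL-D, against 3.84, 8.51 and 11.5 TPM in NIL-X, so the lines were apart by less than 1 TPM, and NIL-X replicate 1 stood below the others of its line. The means were 16.3 ± 3.67 TPM in NIL-D, against 7.95 ± 3.86 TPM in NIL-X (SD over 3 samples each). The log2 fold change was 1.04 (standard error 0.37, adjusted p = 0.271 by limma), and leaving out single samples gave 0.65 to 1.33.

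Of the members with lower values in NIL-D, both whose log2 fold change was -1 or below had the cationic peroxidase SPC4 of sorghum grain as their best hit. This depends on the scale. On log2(TPM + 0.1), OsZS_01G0337100 (-1.775) and OsZS_09G0310900 (-1.717), with other best hits, fell further than the SPC4 match OsZS_04G0552200 (-1.328). The remaining tested SPC4 matches, OsZS_04G0552500 and OsZS_04G0552400, had -0.58 and -0.35 in the main fit. OsZS_01G0700300, on chromosome 1, had 0.52, 3.27 and 5.64 TPM in NIL-D, against 17.0, 7.23 and 6.79 TPM in NIL-X. The means were 3.14 ± 2.56 TPM in NIL-D, against 10.3 ± 5.76 TPM in NIL-X (SD over 3 samples each), a ratio of 0.304. Replicate 1 was the lowest value of NIL-D and the highest of NIL-X, and the other replicates were nearer to each other. The log2 fold change was -1.58 (standard error 0.59, adjusted p = 0.284 by limma), and leaving out single samples gave -2.04 (without NIL-D replicate 3) to -0.98 (without NIL-D replicate 1), with -1.19 without NIL-X replicate 1. Its limma adjusted p-value ran from 0.0916 to 0.653 over the alternatives.

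OsZS_04G0552200, on chromosome 4, had 2.44, 3.54 and 1.97 TPM in NIL-D, against 9.45, 4.21 and 7.26 TPM in NIL-X. The means were 2.65 ± 0.81 TPM in NIL-D, against 6.97 ± 2.63 TPM in NIL-X (SD over 3 samples each). It had the lowest adjusted p-value of the family, with a log2 fold change of -1.09 (standard error 0.30, adjusted p = 0.196 by limma). Over the alternatives in which it was tested, all but the minimum of 5 TPM, its limma adjusted p-value ran from 0.138 to 0.529, and it was called in none.

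The other members lower in NIL-D without overlap were expressed at a few TPM or less. OsZS_01G0337100, with a best hit to Arabidopsis peroxidase 72, which acts in the lignification of stems, had 0.97, 1.25 and 0.19 TPM in NIL-D, against 3.02, 2.73 and 1.8 TPM in NIL-X. Its log2 fold change was -0.998 (standard error 0.30, adjusted p = 0.216 by limma). OsZS_09G0310900 (peroxidase 55) had 0.23, 0.38 and 0.06 TPM in NIL-D, against 1.08, 0.83 and 0.72 TPM in NIL-X. With a mean of 0.55 TPM it was the last member inside the minimum, and OsZS_07G0012400 (peroxidase 51), at 0.463 TPM, was the first outside it.

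OsZS_01G0206300, with a best hit to maize peroxidase 1, had 1.54, 1.62 and 1.01 TPM in NIL-D, against 1.99, 2.57 and 2.76 TPM in NIL-X. The TL29 gene OsZS_04G0473200 had 1.6, 1.29 and 2.29 TPM in NIL-D, against 2.97, 2.83 and 3.58 TPM in NIL-X. The repeat protein gene OsZS_04G0498300, singled out after its values were seen, had 4.3, 4.05 and 2.4 TPM in NIL-D, against 6.14, 4.71 and 5.1 TPM in NIL-X. Of the 7 members lower without overlap, 2 were therefore genes whose Swiss-Prot hit is not a class III peroxidase. The log2 fold changes of these 3 genes ran from -0.61 to -0.48, with limma adjusted p-values of 0.253 and above.

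**Figure D3:**
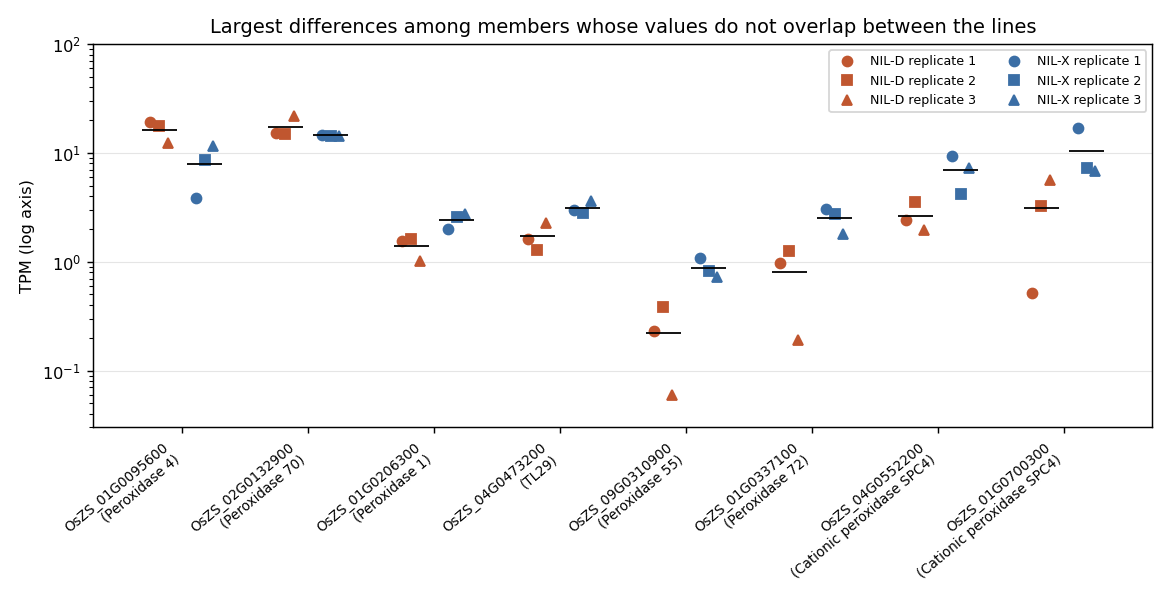
TPM (log axis) of 8 of the 9 members without overlap between the lines (both that were higher in NIL-D and the 6 with the largest fitted decrease), for NIL-D (left of each pair, orange) and NIL-X (right, blue), with a symbol per replicate, the line mean as a bar and the Swiss-Prot hit in brackets. OsZS_01G0095600 and OsZS_02G0132900 were higher in NIL-D and the other 6 lower, and none had a limma adjusted p-value below 0.196.

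The 95% intervals differed in width between members. For 20 of the 46 members (43.5%), the 95% interval of the log2 fold change lay between -1 and 1, so that a 2-fold change on the log2(TPM + 1) scale was outside it. This was so for 67.4% of all tested genes. For the other 26 members, a change of this size lay inside the interval, and the absence of a call does not show equal levels. Among the 20, low members can still differ 2-fold in TPM itself, since this scale understates their change. The widest interval, from -1.44 to 2.68, was that of OsZS_07G0054900, a gene model of 279 bp with 0, 4.84 and 2.23 TPM in NIL-D, against 4.21, 0 and 0 TPM in NIL-X.

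**Figure D4:**
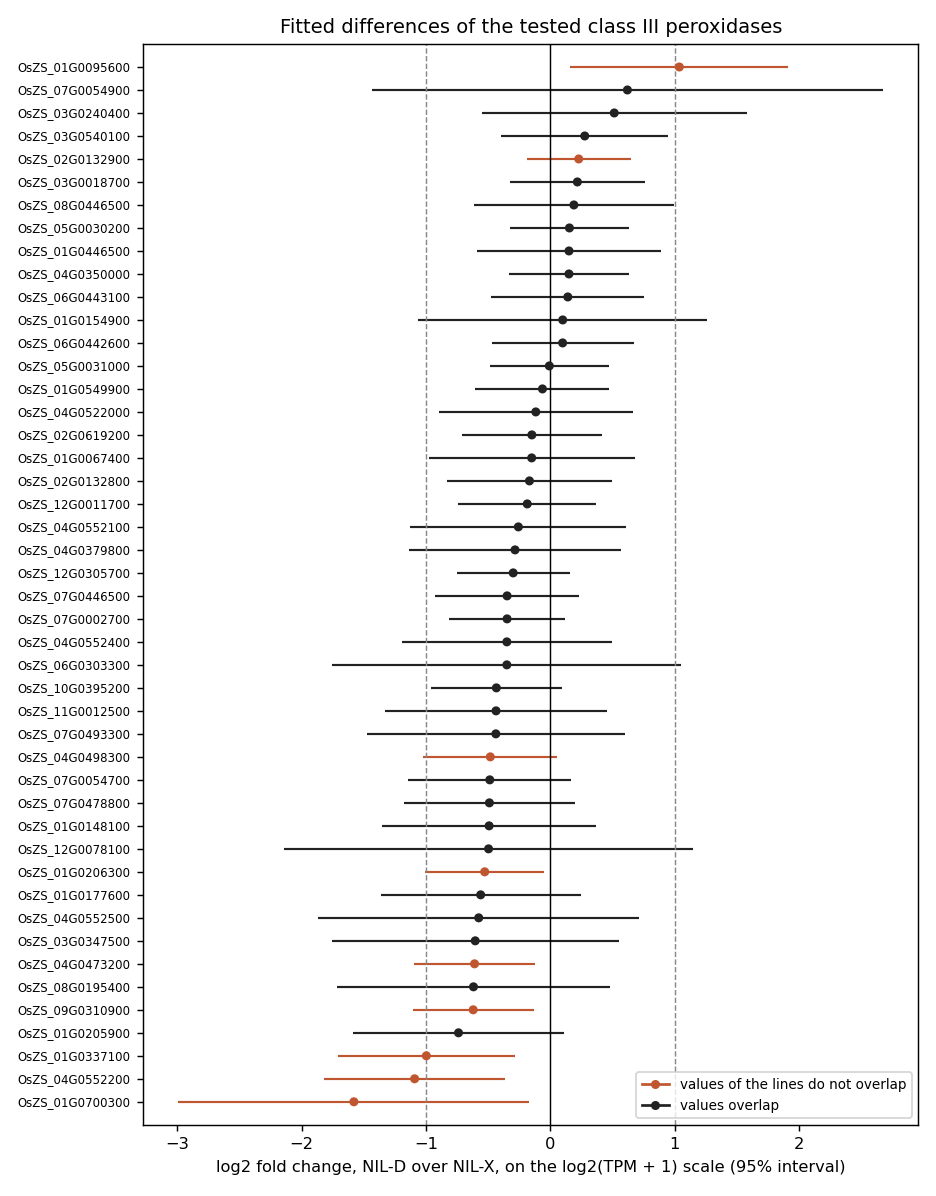
Fitted log2 fold changes (NIL-D over NIL-X) of the 46 tested class III peroxidases with their 95% intervals (lines), in orange where the values of the lines do not overlap. Of the 46 points, 33 lay below 0 and 13 above, and 20 intervals lay between the dashed lines at -1 and 1.

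The fitted log2 fold change was below 0 for 33 of the 46 members (71.7%), beside 69.9% of all tested genes. The median over the members was -0.32 and that over all tested genes -0.15. Rescaling by median ratios set the median of all genes at 0.00048 and that of the members at -0.20, with 17 members above and 29 below 0. Quantile normalization set them at -0.0080 and -0.16, with 18 members above and 28 below 0.

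Among the members, the balance of directions differed between levels, by a split at 10 TPM that was not planned, and it changed with 1 sample. Of the 11 members with a mean of at least 10 TPM, 7 had a log2 fold change above 0 (median 0.14), while of the 35 tested members below 10 TPM, 29 (82.9%) had one below 0 (median -0.44). Over all genes tested, the medians were -0.13 and -0.18 in the same classes, with 30.0% above 0 at 10 TPM or more and 69.8% below 0 under 10 TPM. Without NIL-D replicate 3, the medians of these members were 0.11 at 10 TPM or more and -0.19 under it. NIL-D replicate 3 held the lowest of the 6 values in 26 of the 46 members (56.5%), beside 44.9% of all tested genes. Its median deviation from the mean of the 6 samples was -0.46 on the log2(TPM + 1) scale over the members and -0.18 over all tested genes.

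Without NIL-D replicate 3, 25 of 46 members (54.3%) had a log2 fold change below 0, beside 61.4% of all genes, and the median over the members was -0.024, beside -0.10. In that fit 0 members were called, beside 2.84% of all genes, and 8 members (17.4%) had an unadjusted limma p-value below 0.05, beside 26.2%. The sum of the starchy endosperm markers was 4618 TPM in NIL-D replicate 3, the lowest of the 6 samples, and that of the markers of photosynthetic tissue was 255 TPM, also the lowest. Within the endosperm list, prolamins (3053 TPM) and glutelins (1299 TPM) were lowest in this sample. Granule-bound starch synthase 1 was not, with 266 TPM, against 224 TPM in NIL-D replicate 1 and 256 TPM in NIL-X replicate 1. The part of these marker lists in the low peroxidase values of this sample was not tested.

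Members with a far lower value in NIL-D replicate 3 than in the other samples, singled out after their values were seen, include OsZS_12G0078100 (peroxidase 43), with 12.2, 10.9 and 1.17 TPM in NIL-D, against 12.0, 8.67 and 6.64 TPM in NIL-X. OsZS_03G0347500 (peroxidase 56) had 7.01, 7.93 and 1.48 TPM in NIL-D, against 6.64, 7.63 and 8.46 TPM in NIL-X. In both genes, NIL-D replicates 1 and 2 lay within or next to the range of NIL-X. The sample was not low throughout the family. OsZS_11G0012500, with a best hit to a cationic peroxidase of peanut, had 3.24, 3.97 and 8.93 TPM in NIL-D, against 8.96, 4.79 and 8.01 TPM in NIL-X. OsZS_12G0011700, on chromosome 12, has the same best hit and had 1.29, 0.6 and 0.87 TPM in NIL-D, against 1.61, 1.08 and 0.86 TPM in NIL-X, and reads shared by such copies could have been split between them.

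**Figure D5:**
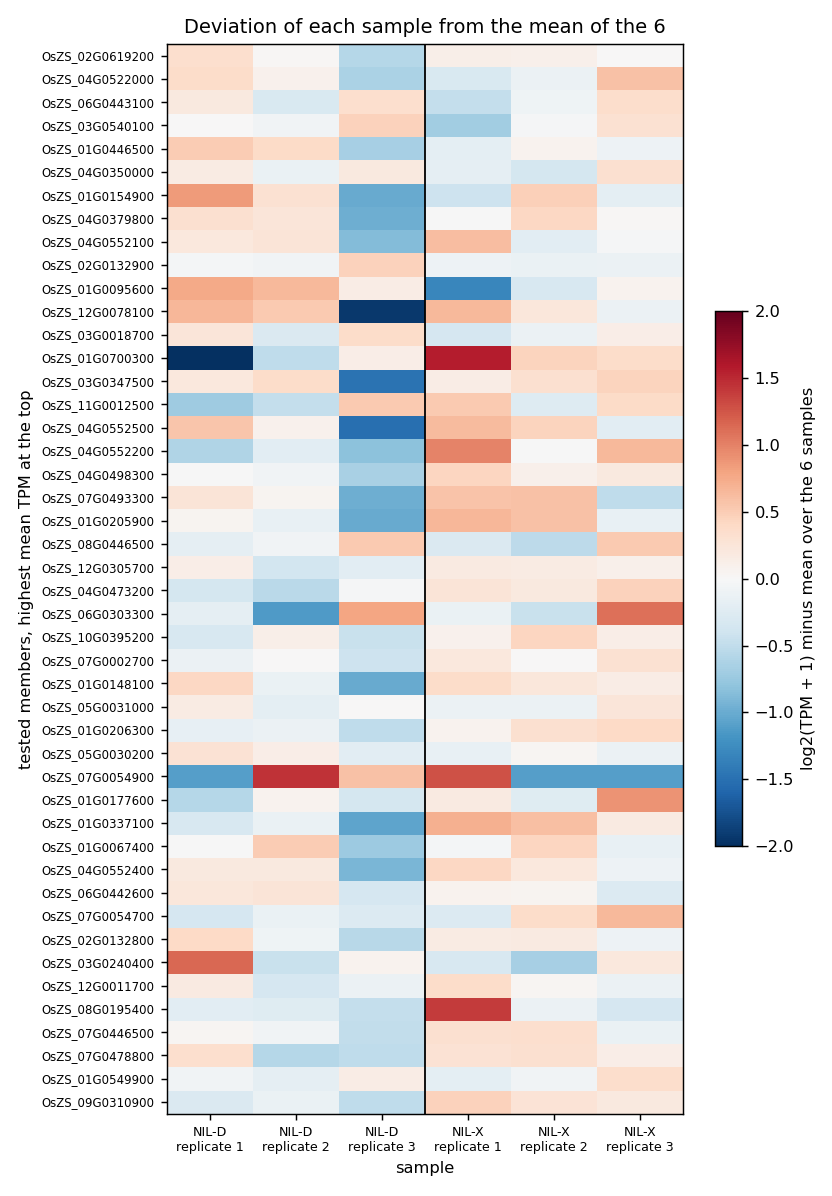
Deviation of each sample (columns, NIL-D left and NIL-X right of the black line) from the mean of the 6 samples on the log2(TPM + 1) scale, for the 46 tested class III peroxidases (from top to bottom, by falling mean TPM), with red above and blue below the mean. NIL-D replicate 3 was the lowest sample in 26 of the 46 genes, with a median deviation of -0.46.

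In some members a single sample stood out, and it was not always the same one. OsZS_08G0195400, with a best hit to Arabidopsis peroxidase 40, which acts in the tapetum of anthers, had 0.5, 0.46 and 0.25 TPM in NIL-D, against 3.55, 0.59 and 0.37 TPM in NIL-X. Apart from NIL-X replicate 1, all its values lay below 0.6 TPM. OsZS_03G0240400 had 3.18, 0.39 and 0.99 TPM in NIL-D, against 0.52, 0.19 and 1.2 TPM in NIL-X, with NIL-D replicate 1 above the rest. OsZS_06G0303300, with a best hit to turnip peroxidase P7, had 1.53, 0.31 and 4 TPM in NIL-D, against 1.63, 1.12 and 5.16 TPM in NIL-X, and here replicate 3 was the highest in both lines. These 3 genes were also singled out after their values were seen.

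The members lie on all 12 chromosomes, most of them on chromosomes 1 and 7 with 22 each, followed by chromosome 3 with 18 and chromosome 6 with 16. A run was counted where at least 3 members followed each other with at most 5 other genes between neighbours, genes being ordered by the number in their names. By this count, 51 members lay in 12 runs of up to 6 members. In the runs, 18 of 51 members were tested and 2 reached 10 TPM. Outside them, 28 of 76 were tested and 9 reached 10 TPM, so most of the strongly expressed members lay outside runs.

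The run on chromosome 4 from OsZS_04G0552100 to OsZS_04G0552500 held the most tested members, 4 of 5. It starts with the peroxidase 12 relative described above, and the other members have the sorghum SPC4 as their best hit. OsZS_04G0552500 had 7.61, 5.23 and 1.07 TPM in NIL-D, against 8.13, 6.97 and 4.06 TPM in NIL-X. OsZS_04G0552400 had 1.49, 1.5 and 0.15 TPM in NIL-D, against 1.9, 1.52 and 1.03 TPM in NIL-X, and OsZS_04G0552300 did not exceed 0.08 TPM in NIL-D or 0.23 TPM in NIL-X. The sum of the run was 30.1, 29.6 and 11.5 TPM in NIL-D, against 44.6, 26.3 and 28.0 TPM in NIL-X. Neighbours in the run thus ranged from near 0 to over 10 TPM, and NIL-D replicate 3 was the lowest sample in each of its 4 tested genes.

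The run on chromosome 1 from OsZS_01G0205900 to OsZS_01G0206900 consists of 5 genes with maize peroxidase 1 as their best hit. OsZS_01G0205900 had 3.16, 2.62 and 1 TPM in NIL-D, against 5.4, 5.01 and 2.64 TPM in NIL-X, and the lines overlapped narrowly, since NIL-D replicate 1 lay above NIL-X replicate 3. Its log2 fold change was -0.74 (standard error 0.35, adjusted p = 0.366 by limma). With OsZS_01G0206300, the other tested gene, it made up most of the run's sum of 4.85, 4.37 and 2.01 TPM in NIL-D, against 7.78, 7.71 and 5.61 TPM in NIL-X. The sum did not overlap between the lines, and as a sum over members it was given no test. Of all single genes tested, 19.7% had their NIL-D values below those of NIL-X without overlap. OsZS_01G0206100 was listed at 0 in all samples, OsZS_01G0206500 did not exceed 0.1 TPM and OsZS_01G0206900 had at most 0.15 TPM in NIL-D, against 0.29 TPM in NIL-X.

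The run on chromosome 5 held a pair of genes of like level in both lines. OsZS_05G0030200 (a hit to maize peroxidase 2) had 2.51, 2.16 and 1.49 TPM in NIL-D, against 1.59, 1.94 and 1.64 TPM in NIL-X. OsZS_05G0031000 (a hit to grapevine peroxidase 5) had 2.32, 1.58 and 1.98 TPM in NIL-D, against 1.73, 1.73 and 2.49 TPM in NIL-X. Their 95% intervals ran from -0.33 to 0.63 and from -0.49 to 0.47. The neighbours OsZS_05G0030400 and OsZS_05G0031100 were listed at 0 in all 6 samples. Runs on chromosomes 1, 5, 6 and 7 tied at 2 tested members, and those on chromosomes 6 and 7 are given by their sums. The run on chromosome 6, which holds OsZS_06G0443100, summed to 83.8, 59.5 and 91.3 TPM in NIL-D, against 52.9, 68.7 and 92.9 TPM in NIL-X. The run on chromosome 7 from OsZS_07G0054600 to OsZS_07G0054900 summed to 0.66, 5.75 and 2.96 TPM in NIL-D, against 4.93, 1.68 and 2.28 TPM in NIL-X. Both sums overlapped between the lines. In such runs, reads shared by similar copies could have been assigned to either copy, so the values of neighbours are less certain than those of lone genes.

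Members were also grouped by the species of the best Swiss-Prot hit, which was not planned. Of them, 48 matched Arabidopsis proteins, 50 matched proteins of grasses (maize, sorghum or rice) and 29 those of other plants. Of the Arabidopsis matches, 24 (50.0%) were tested and 9 reached 10 TPM, and they held 495 to 769 TPM in NIL-D, against 577 to 704 TPM in NIL-X. Of the grass matches, 12 (24.0%) were tested, 1 reached 10 TPM, 19 were listed at 0 throughout and 36 lay in runs. The grass matches summed to 44.0, 40.1 and 40.5 TPM in NIL-D, against 68.2, 50.7 and 49.4 TPM in NIL-X, and the lines did not overlap. NIL-X replicate 1 held much of that gap, and OsZS_01G0700300 alone had 17.0 TPM there. Among single tested genes, 19.7% had all NIL-D values below those of NIL-X. The median log2 fold change of the tested grass matches was -0.42, or -0.21 without NIL-D replicate 3. For Arabidopsis matches it was -0.21, or 0.039 without that sample, and for other plants -0.27, or -0.32. The best hit depends on which proteins of a species are in Swiss-Prot, so a hit to a grass protein is not a subfamily.

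Of the 44 members above 0 but below the minimum, 2 were higher and 3 lower in NIL-D without overlap, all below 1 TPM in every sample. Of all 12361 genes in this range, 8.10% did not overlap, 1.94% being higher in NIL-D and 6.16% lower. OsZS_07G0447000, on chromosome 7, had 0.33, 0.31 and 0.83 TPM in NIL-D, while NIL-X replicates 1 and 2 were listed at 0 and replicate 3 had 0.16 TPM. OsZS_07G0478900 had 0.2, 0.03 and 0.17 TPM in NIL-D, against 0.48, 0.69 and 0.54 TPM in NIL-X. OsZS_08G0011800 (peroxidase 47) was listed at 0 in NIL-D and had 0.08, 0.07 and 0.04 TPM in NIL-X. These were chosen after their values were seen. Only NIL-D had a value above 0 in 3 members and only NIL-X in 6, none of them above 0.33 TPM. The same share over all genes was not counted. Over the whole table, 26270 to 27013 genes were above 0 in NIL-D samples, against 27224 to 27709 in NIL-X samples.

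The enzymes that supply peroxidases with hydrogen peroxide or phenolic substrate, and the wall proteins they act on, were read from the same fit. With all 6 samples none of their genes was called, beside 0.642% of all tested genes. NADPH oxidases, which make superoxide at the plasma membrane, had 9 of 10 genes tested, with a sum of 394 to 420 TPM in NIL-D, against 426 to 458 TPM in NIL-X. At an unadjusted limma p-value below 0.05, 0 were higher and 2 lower in NIL-D, beside 3.60% and 12.0% of all tested genes. Superoxide dismutases, which turn superoxide into hydrogen peroxide, had all 8 genes tested, with a sum of 1995 to 2435 TPM in NIL-D, against 2238 to 2399 TPM in NIL-X. Germins and oxalate oxidases, another source of hydrogen peroxide in grass walls, had 5 of 33 genes tested and a median log2 fold change of -0.41, or -0.11 without NIL-D replicate 3.

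Of the enzymes of lignin precursors, from phenylalanine ammonia-lyase to cinnamyl alcohol dehydrogenase, 40 of 72 genes were tested, 16 with a log2 fold change above 0 and 24 below (median -0.10). At an unadjusted limma p-value below 0.05, 3 were higher and 4 lower in NIL-D, beside 3.60% and 12.0% of all tested genes. Over all tested genes, 69.9% had a log2 fold change below 0 and the median was -0.15. Laccases, which polymerise lignin beside peroxidases, had 0 of 28 genes above the minimum, and together they had at most 0.49 TPM in NIL-D, against 1.24 TPM in NIL-X. Dirigent proteins, which steer the coupling of phenolic radicals, had 6 of 56 genes tested, 5 of them with a log2 fold change below 0 and 2 with an unadjusted limma p-value below 0.05. Extensins, wall proteins that peroxidases cross-link, had 16 of 31 genes tested with a median of -0.10, or -0.011 without NIL-D replicate 3, and pectin methylesterases, which free the pectin that binds some peroxidases, had 15 of 44 tested with a median of -0.011, or 0.22 without NIL-D replicate 3.

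Ascorbate peroxidases and catalases, which remove hydrogen peroxide inside the cell, had 10 of 14 genes tested. They summed to 567, 643 and 632 TPM in NIL-D, against 747, 759 and 744 TPM in NIL-X, and all 3 NIL-D samples lay below those of NIL-X. Of the 10 genes, 8 had a log2 fold change below 0 (median -0.37) and 1 had an unadjusted limma p-value below 0.05. Over all tested genes these shares were 69.9% (median -0.15) and 15.6%. Single genes with all NIL-D values below those of NIL-X made up 19.7% of all tested genes. Without NIL-D replicate 3, 1 gene of this list and 1 of the lignin precursor enzymes were called, beside 2.84% of all genes in that fit. These were the catalase C gene OsZS_03G0028600, with 0.62, 0.81 and 6.89 TPM in NIL-D, against 9.28, 3.86 and 9.34 TPM in NIL-X, and the caffeoyl-CoA O-methyltransferase gene OsZS_09G0291300, with 15.8, 12.5 and 6.5 TPM in NIL-D, against 4.92, 6.32 and 5.65 TPM in NIL-X. In both, NIL-D replicate 3 was the NIL-D sample nearest to NIL-X, and in OsZS_03G0028600 it lay within the range of NIL-X. Without it their log2 fold changes were -2.23 (adjusted p = 0.0343 by limma) and 1.19 (adjusted p = 0.0251 by limma), and with all 6 samples their limma adjusted p-values were 0.331 and 0.273. Over the alternatives, limma gave adjusted p-values from 0.0343 to 0.676 for OsZS_03G0028600 and from 0.0251 to 0.629 for OsZS_09G0291300. The paper lists OsZS_09G0291300 among its differentially expressed genes, from another test. Whether the paper's full list holds class III peroxidases is not reported here.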

How the data were processed

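RNA of rice embryos was sequenced from 3 samples of NIL-D and 3 of NIL-X, grouped by their titles. Per the study's methods, the authors cleaned the reads (SeqPrep, Sickle), used Cufflinks, aligned to the ZS97RS3 assembly with TopHat, and ran RSEM, naming FPKM as its unit. The submitters' processing notes name Bowtie 0.12.2 and the mouse build mm8, and this conflict and the genotype name CMP-/- were not resolved. The table the authors deposited holds TPM with 2 decimals, the authors' means per line (not used), gene length and annotation. RSEM shares reads that fit several genes out by estimate, so values of similar copies depend on each other.

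A moderated test suited to TPM, limma 3.58.1 (R 4.3.3; linear model, empirical Bayes with a mean-variance trend), was run on log2(TPM + 1) where the mean was 0.5 TPM or more, and p-values were adjusted over all 21500 genes so kept. On simulated data in which 200 genes changed 8-fold, with no deviating sample, 185 were recovered with 12 false calls, and 0 calls were made with no change. The changed genes were drawn only from those above a set level, so this recovery does not cover low genes or smaller changes. Other steps used Python 3.11.15, numpy 2.4.6, pandas 2.3.3 and matplotlib 3.10.9. Per the methods, each line gave 1 RNA sample from each of 3 field plots, so the p-values measure the spread between plots of 1 line.

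Genes named are the 10 members highest in mean TPM, any called member, the 6 largest differences in each direction among tested members without overlap, members above 0 in all samples of 1 line and at 0 in the other with a mean of at least 0.1 TPM, the 3 runs with most tested members (ties by number of members, then by gene number), and the members next to the minimum. The members and lists were chosen with earlier results of these data known.

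Alternatives changed the pseudocount (0.1), the minimum (none, or 5 TPM), the scaling (median ratios or quantiles), the trend, the call rule (no fold change limit), the replicate number as a blocking term, and single samples left out. The family's sum was also taken without its highest member and, added after seeing the data, without the 3 members with other Swiss-Prot hits.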

Additional observations from a re-analysis of the deposited data

How the results depend on the processing

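Under every alternative tried, 0 class III peroxidases were called, the lowest limma adjusted p-value of a member being 0.0626, without NIL-D replicate 3. The 138 calls over all genes became 57 with a minimum of 5 TPM and 37 to 611 with a sample left out, 611 being the fit without NIL-D replicate 3. The lines share replicate numbers, which the labels tie to no plot. Deviations from the line means of same-numbered samples correlated at 0.0164, 0.202 and 0.199 across genes, and with the number as a block 43 genes were called in all. The members' median log2 fold change of -0.32 became -0.079 with no filter, when 90 members were tested, and ran from -0.40 to -0.024 with a sample left out. The members' summed TPM in NIL-D minus that in NIL-X was -16.3, ran from -84.6 to 51.9 with a sample left out, and was 68.3 with median-ratio rescaling, all within the spread between samples.

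Signs of some named members turned as follows, among them OsZS_04G0552500 and OsZS_04G0552400, at -0.58 and -0.35 in the main fit. Median-ratio rescaling gave OsZS_02G0619200 0.029, OsZS_04G0522000 0.060 and OsZS_05G0031000 0.11, and quantile normalization gave OsZS_05G0031000 0.19. With a sample left out, the log2 fold change ran from -0.35 to 0.10 for OsZS_02G0619200, -0.33 to 0.17 for OsZS_04G0522000, -0.061 to 0.35 for OsZS_06G0443100, -0.0046 to 0.50 for OsZS_03G0540100, -0.069 to 0.52 for OsZS_01G0446500, -0.30 to 0.63 for OsZS_01G0154900, -0.51 to 0.13 for OsZS_04G0379800, -0.45 to 0.11 for OsZS_04G0552100, -0.54 to 0.022 for OsZS_04G0552400, -0.997 to 0.031 for OsZS_04G0552500 and -0.096 to 0.11 for OsZS_05G0031000. The cause was not tested. The paper gives the total of clean sequence and a minimum per sample. Mapped reads of each library were not used here, so no limit for values at 0 was set.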
